A study of Mus musculus with 11 samples.

Results

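The 10 genes described here encode ligands of the transforming growth factor beta (TGF-beta) family: Tgfb1, Tgfb2 and Tgfb3, the activin subunits Inhba and Inhbb, the growth differentiation factors Gdf15 and Mstn, and the bone morphogenetic proteins Bmp4, Bmp6 and Bmp10. They were found by their symbols among 23420 genes of a mouse heart RNA-sequencing table, and each symbol had 1 row. Of the 10, 7 had a mean of at least 10 normalized counts over the 11 libraries and were tested among 12976 genes. Inhba, Mstn and Bmp10 fell below that mean.

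All groups carried loxP-flanked alleles of Cd36, the gene of a plasma membrane fatty acid transporter, by the strain label. The CM KO group (3 libraries) was labelled as the MHC-cre knockout, in which the Cre recombinase is driven in cardiomyocytes. The EC KO group (3 libraries) was labelled as the Tie2-cre knockout, and Tie2 is a promoter of endothelial cells that is also active in some blood-forming cells. The Total KO group (3 libraries) was labelled as a total knockout, and the labels do not tell how that deletion was produced; the Control group (2 libraries) was given no Cre. The labels state neither age nor sex. Nothing in them ties a library to an animal, and p-values here cover the spread among libraries of a group, which may be technical. The numbers in the library names form 3 runs, 1 for CM KO, 1 shared by EC KO and Control, and 1 for Total KO, so that a difference of CM KO or Total KO from Control cannot be told apart from a difference between such runs.

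TGF-beta ligands are secreted as dimers and signal through pairs of type I and type II receptor kinases. TGF-betas and activins lead to phosphorylation of one set of Smad proteins, and most bone morphogenetic proteins (BMPs) to that of another. TGF-betas leave the cell in a latent complex with their own propeptide and a binding protein, which integrins, proteases or matrix proteins open. In the heart, TGF-betas are best known for turning fibroblasts into matrix-producing, contractile cells after injury. GDF15 is a hormone released by stressed tissues, and myostatin, the product of Mstn, restrains skeletal muscle growth.

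In the GENCODE annotation of GRCm38 the members lie on 7 chromosomes. Tgfb2 is at chr1:186622792-186705989 (minus strand), Inhbb at chr1:119415465-119422248 (minus strand) and Mstn at chr1:53061640-53068079 (plus strand). Tgfb1 is at chr7:25687002-25705077 (plus strand), Tgfb3 at chr12:86056745-86079041 (minus strand) and Gdf15 at chr8:70629393-70632456 (minus strand). Inhba is at chr13:16011851-16031621 and Bmp6 at chr13:38345107-38500302 (both plus strand), Bmp4 at chr14:46383520-46390669 (minus strand) and Bmp10 at chr6:87428994-87437677 (plus strand). Exons of Tgfb2, Tgfb3, Bmp4 and Bmp6 share 89 to 257 bases with genes on the opposite strand. Whether the counting used strand is not given in the sources used here, so reads from these overlaps cannot be assigned with certainty.

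The promoters of Tgfb2 and Inhbb, the ligand genes that passed the test in CM KO hearts, are shown with those of Tgfb1 and Gdf15, whose CM KO values also lay above the Control values. For Tgfb3, whose CM KO values also lay above the Control values, no window is shown. RefSeq (GRCm38.p6, the patch release of mm10) gave a window of 250 bases before and 50 bases from the start site for the other 9 of the 10 genes. Each is written 5′ to 3′ on the gene's strand, and capitals mark the motif matches described after the sequences. The windows lie at chr1:186705940-186706239 (minus strand) for Tgfb2, chr1:119422199-119422498 (minus strand) for Inhbb, chr7:25686752-25687051 (plus strand) for Tgfb1 and chr8:70632407-70632706 (minus strand) for Gdf15.
Tgfb2: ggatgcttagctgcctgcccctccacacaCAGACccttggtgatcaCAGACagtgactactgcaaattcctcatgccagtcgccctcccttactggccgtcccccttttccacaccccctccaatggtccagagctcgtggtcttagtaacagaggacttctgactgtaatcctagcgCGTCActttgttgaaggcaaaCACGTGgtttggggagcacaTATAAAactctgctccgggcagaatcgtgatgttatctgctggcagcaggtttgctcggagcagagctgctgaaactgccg
Inhbb: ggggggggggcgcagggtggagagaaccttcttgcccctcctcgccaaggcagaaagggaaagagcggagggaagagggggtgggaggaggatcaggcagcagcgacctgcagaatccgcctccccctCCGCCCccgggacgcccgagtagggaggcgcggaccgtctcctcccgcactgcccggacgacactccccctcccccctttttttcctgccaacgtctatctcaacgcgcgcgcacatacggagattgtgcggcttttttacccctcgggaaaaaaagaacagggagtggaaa
Tgfb1: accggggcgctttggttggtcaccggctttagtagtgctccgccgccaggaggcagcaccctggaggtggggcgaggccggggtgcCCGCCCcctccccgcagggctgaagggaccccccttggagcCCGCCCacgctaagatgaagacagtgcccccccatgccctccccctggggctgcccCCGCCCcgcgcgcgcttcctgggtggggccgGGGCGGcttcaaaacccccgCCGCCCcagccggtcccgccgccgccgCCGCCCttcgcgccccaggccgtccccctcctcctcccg
Gdf15: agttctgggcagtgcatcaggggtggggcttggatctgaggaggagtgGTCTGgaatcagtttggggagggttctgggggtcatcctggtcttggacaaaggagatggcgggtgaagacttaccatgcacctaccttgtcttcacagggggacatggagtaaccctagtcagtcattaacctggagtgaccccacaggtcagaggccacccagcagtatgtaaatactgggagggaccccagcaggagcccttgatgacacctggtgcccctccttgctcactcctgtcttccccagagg
The 7 motifs were searched on both strands. The first was the site of the AP-1 factors, spelled TGANTCA. The core of the cyclic AMP response element was spelled TGACG. The E-box searched was spelled CACGTG, and the Smad box was spelled CAGAC. The element that the stress response factors CHOP and ATF4 bind was spelled TGATGNAA. The last were the TATA box, spelled TATAAA, and the GC box, which was spelled GGGCGG. None of these letter strings lies wholly within another of the 7. The Tgfb2 window held a TATA box at position -31 from the start site, an E-box at -51, a response element core at -72 and Smad boxes at -204 and -221. Of the 32851 mouse promoter windows of the same length, 13.6% held the TATA box, 7.15% the E-box, 20.8% the core and 49.6% the Smad box. The Tgfb1 window held 6 GC boxes and the Inhbb window 1, at -122, against 35.7% of all windows with at least 1 GC box. The Gdf15 window held a Smad box at -202, and a window of Gdf15 that starts elsewhere, at chr8:70632046-70632345, held a Smad box and an E-box. The AP-1 site (7.81% of windows) was found in the Mstn window and the ATF4 and CHOP element (3.97%) in none of the members' windows, which says only that these letters are not in these windows. The 4 genes shown share no motif that all of them hold.

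Libraries held 11157062 to 20105673 reads, except EC KO replicate 1, with 2268403 reads. In that library 3 reads, the limit that a count of 0 allows, are worth 18.1 normalized counts, against 1.94 to 3.82 in the other libraries; this limit covers counting error only. Cd36 itself stood at 15792 to 21610 normalized counts in CM KO, 25758 to 30308 in EC KO, 18847 to 23452 in Total KO and 35425 to 44530 in Control, so that each knockout library was below each Control library and none was near 0. The table does not tell which part of the gene these reads came from, so the deletion itself, in Total KO too, could not be checked, and the groups are named as labelled. Cardiomyocyte markers such as Myh6 and Tnnt2 were high in every library (a sum of 742812 to 1358690 normalized counts over 9 genes). EC KO replicate 1, with the fewest reads, and CM KO and Total KO replicates 1 are the 3 libraries in doubt. Results that rest on them are also given without them. Total KO replicate 1 had the next fewest reads (11157062). CM KO replicate 1 was not set apart by depth (15582950 reads). It had the lowest cardiomyocyte sum (742812) and the highest fibroblast (99767) and macrophage (11225) sums, so leaving it out is not a filter on depth. In bulk tissue, fewer cells of a type and less RNA per cell cannot be told apart.

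Among the TGF-beta isoform genes, Tgfb2 was higher in CM KO hearts than in Control hearts, and all 3 isoform genes had CM KO values above every Control value, a separation that 18.3% of all genes tested showed in that direction. EC KO and Total KO hearts held the isoforms at levels that mostly overlapped those of Control. Tgfb2 encodes the isoform needed for heart valve and septum development. It stood at 581, 453 and 549.6 normalized counts in the CM KO libraries, 229.6, 225 and 271 in EC KO, 160.4, 289 and 284 in Total KO, and 225 and 310.1 in Control. The lowest CM KO library was above the highest library of every other group, and the EC KO, Total KO and Control libraries overlapped. The mean was 528 ± 66.5 in CM KO, 242 ± 25.6 in EC KO, 245 ± 73.0 in Total KO (SD, n = 3 each) and 268 ± 59.9 in Control (SD, n = 2). The CM KO mean was 1.97 times the Control mean, with a log2 difference of 0.99 ± 0.23 (SE; adjusted p = 0.0317 by limma). EC KO minus Control was -0.13 (95% interval -0.64 to 0.38) and Total KO minus Control -0.16 (-0.67 to 0.35) on the log2 scale, and neither passed. The call for CM KO against Control was lost in a fit to those groups alone (adjusted p = 0.0628) and without CM KO replicate 1 (0.91, adjusted p = 0.0918), CM KO replicate 3 (0.95, adjusted p = 0.0714) or Control replicate 1 (0.76, adjusted p = 0.279), and it held without the 3 libraries in doubt (0.91, adjusted p = 0.0193).

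Tgfb3, the isoform gene known for its part in palate closure, showed the widest spread in CM KO. Its values were 896, 366 and 463 normalized counts in CM KO, 302, 271 and 265 in EC KO, 251, 257 and 279 in Total KO, and 289.9 and 286 in Control. CM KO replicate 1 was far above its group, and the lowest CM KO library was still above every library of the other groups. The Control libraries lay within the EC KO range and just above the Total KO range. The share of all genes with every Total KO library below every Control library was not computed. The mean was 575 ± 282 in CM KO, 279 ± 19.8 in EC KO, 262 ± 14.5 in Total KO and 288 ± 2.56 in Control. CM KO minus Control was 0.89 ± 0.27 (SE) on the log2 scale and did not pass (adjusted p = 0.0722 by limma). It was 0.51 without CM KO replicate 1 (adjusted p = 0.0741) and 1.16 without CM KO replicate 2 (adjusted p = 0.0137), and it passed in edgeR (0.99, adjusted p = 0.0480) and DESeq2 (0.998, adjusted p = 0.00639) on the recovered reads. EC KO minus Control was -0.05 (95% interval -0.62 to 0.53) and Total KO minus Control -0.14 (-0.71 to 0.44), and neither passed.

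Tgfb1, the isoform best known in scar formation and immune control, had the smallest CM KO difference of the isoform genes. It stood at 482, 394 and 398 normalized counts in CM KO, 242, 279 and 309 in EC KO, 246, 317 and 341 in Total KO, and 235 and 365 in Control. The CM KO libraries were the highest, and the Control libraries spanned all EC KO and Total KO values. Means were 425 ± 49.6 in CM KO, 277 ± 33.9 in EC KO, 301 ± 49.7 in Total KO and 299.6 ± 91.8 in Control. CM KO minus Control was 0.53 ± 0.20 (SE) and did not pass (adjusted p = 0.139 by limma). Without Control replicate 2 it was 0.85 and passed (adjusted p = 0.0437), and without Control replicate 1 it was 0.21. The difference from Control was -0.09 (95% interval -0.51 to 0.34) in EC KO and 0.03 (-0.40 to 0.45) in Total KO, and neither passed.

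**Figure D1:**
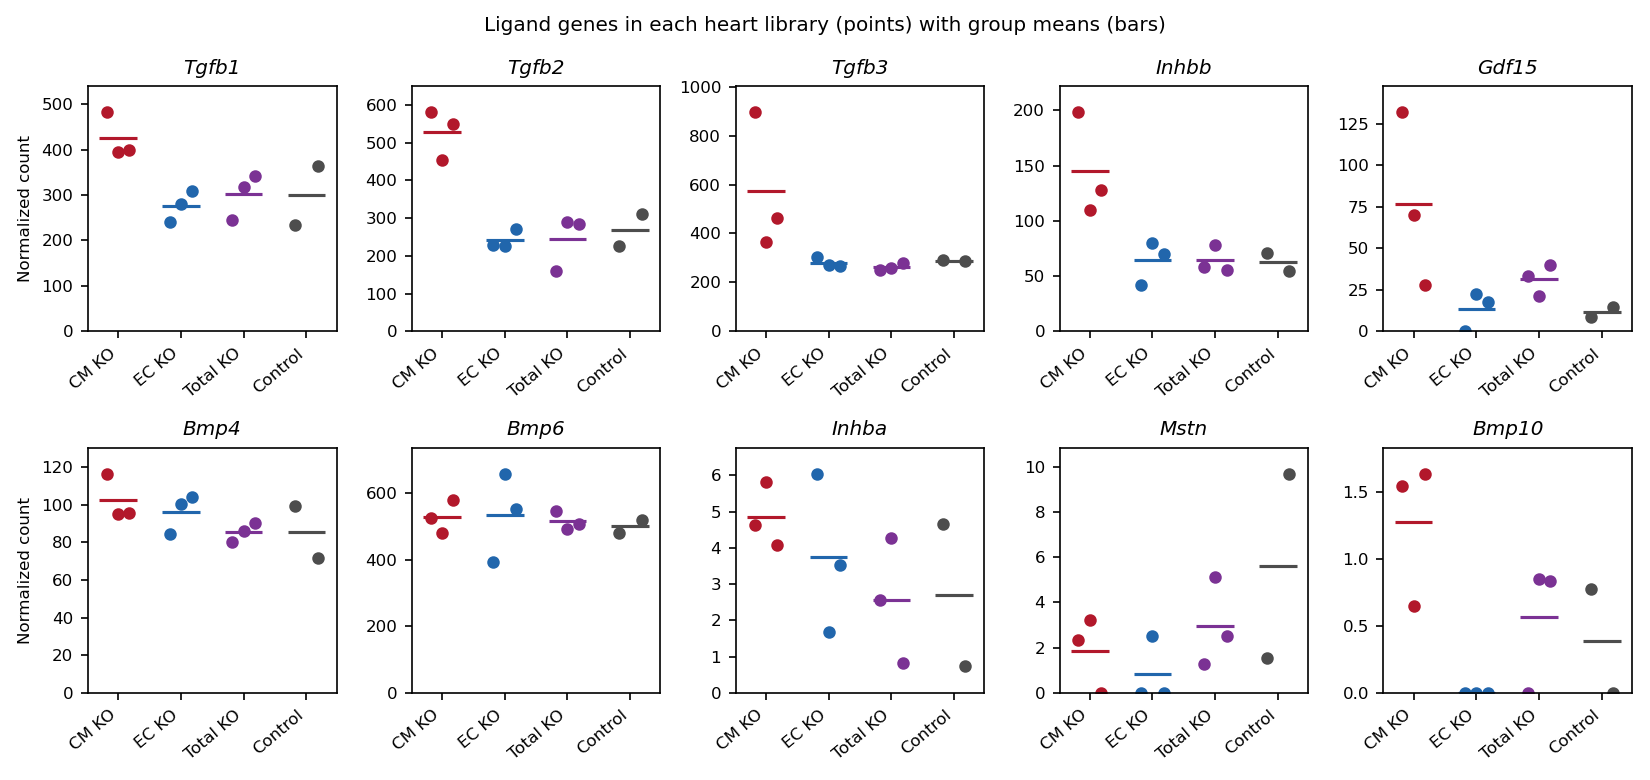
Normalized counts (y axis, from 0, a scale of its own in each panel) of the 10 ligand genes in the CM KO, EC KO, Total KO and Control libraries (x axis); points are libraries and bars are group means. For Tgfb1, Tgfb2, Tgfb3, Inhbb and Gdf15 all CM KO points lie above both Control points (as for 18.3% of all genes). For Bmp4 and Bmp6 each knockout group overlaps Control, and Inhba, Mstn and Bmp10 stay below 10 normalized counts.

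Levels of different genes were compared per kilobase of exon. The 3 isoform genes summed to 461, 265 and 311 normalized counts per kb in CM KO, 177, 174 and 187 in EC KO, 151, 189 and 199 in Total KO, and 171 and 210.5 in Control. The CM KO sums were all above those of the other groups. The make-up of the sum overlapped between groups: Tgfb3 gave 40.9% to 57.5% of it in CM KO, 42.0% to 50.5% in EC KO, 40.3% to 49.2% in Total KO and 40.2% to 50.1% in Control. Tgfb2 gave 21.8% to 30.5% in CM KO, 22.3% to 25.1% in EC KO, 18.4% to 26.4% in Total KO and 22.7% to 25.4% in Control.

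**Figure D2:**
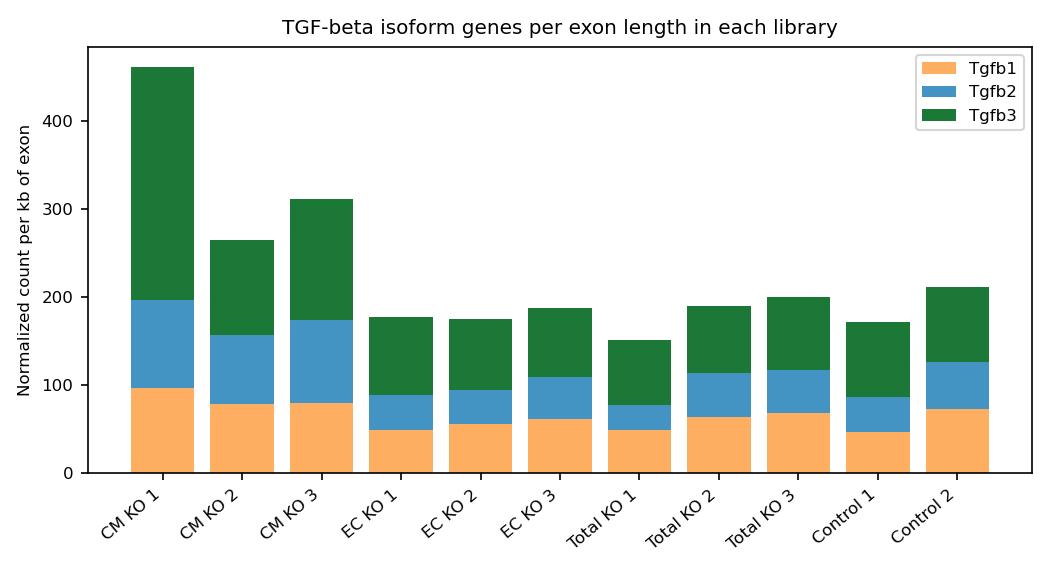
Normalized counts per kb of exon (y axis, from 0) of Tgfb1, Tgfb2 and Tgfb3, stacked, in each library (x axis, grouped as CM KO, EC KO, Total KO and Control). The CM KO bars reach 265 to 461 per kb and the Control bars 171 and 210.5 per kb, with Tgfb3 the largest of the 3 parts in every library.

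Inhbb, which encodes the beta B subunit of activin B and inhibin B, was higher in CM KO hearts than in Control hearts. It stood at 198, 110.1 and 128 normalized counts in CM KO, 42.3, 80.3 and 69.8 in EC KO, 58.6, 78.4 and 55.9 in Total KO, and 70.7 and 54.4 in Control. Every CM KO library was above every other library (against Control alone, as for 18.3% of all genes), and the EC KO, Total KO and Control values overlapped. Means were 145 ± 46.7 in CM KO, 64.1 ± 19.6 in EC KO, 64.3 ± 12.3 in Total KO and 62.6 ± 11.5 in Control. The CM KO mean was 2.32 times the Control mean, with a log2 difference of 1.17 ± 0.30 (SE; adjusted p = 0.0435 by limma). EC KO minus Control was 0.00 (95% interval -0.66 to 0.65) and Total KO minus Control 0.03 (-0.62 to 0.69), and neither passed. The CM KO call was lost in 11 of 24 alternatives, among them no filter (adjusted p = 0.0729), a fit to CM KO and Control alone (0.0891 as adjusted p) and library weights (1.03, adjusted p = 0.0632). It was lost without CM KO replicate 1 (0.92, adjusted p = 0.140), CM KO replicate 3 (1.24, adjusted p = 0.0705), Control replicate 1 (1.35, adjusted p = 0.170), Control replicate 2 (0.98, adjusted p = 0.162), EC KO replicate 3 (adjusted p = 0.0545) or any Total KO library (adjusted p = 0.0533 to 0.0602).

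Inhba, which encodes the beta A subunit of activin A and inhibin A, was near the limit of detection. It had 6, 9 and 5 reads in the CM KO libraries, 1, 2 and 4 in EC KO, 2, 5 and 1 in Total KO, and 6 and 1 in Control. Without the filter, its log2 difference from Control was 0.88 in CM KO (95% interval -0.43 to 2.20), 0.49 in EC KO (-0.83 to 1.80) and 0.05 in Total KO (-1.27 to 1.36), and none passed.

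Gdf15 had its highest values in CM KO. It stood at 132, 69.9 and 27.8 normalized counts in CM KO, 0, 22.6 and 17.7 in EC KO, 33.1, 21.3 and 40.04 in Total KO, and 8.55 and 14.9 in Control. The CM KO and Total KO libraries were all above both Control libraries (as for 12.3% of all genes in Total KO), the CM KO and Total KO ranges overlapped, and the EC KO range spanned the Control values. The 0 in EC KO replicate 1 allows up to 18.1 normalized counts, above both Control values, so that library gives no direction. Means were 76.6 ± 52.4 in CM KO, 13.4 ± 11.9 in EC KO, 31.5 ± 9.47 in Total KO and 11.7 ± 4.5 in Control. CM KO minus Control was 2.39 ± 1.07 (SE; 95% interval 0.08 to 4.71) and did not pass (adjusted p = 0.221 by limma). It passed without EC KO replicate 1 (2.39, adjusted p = 0.0289), and in edgeR (2.69, adjusted p = 0.0228) and DESeq2 (2.71, adjusted p = 0.000350) on the recovered reads. Total KO minus Control was 1.35 (-0.96 to 3.67) and EC KO minus Control -0.70 (-3.01 to 1.62), and neither passed. The EC KO mean of Gdf15 was nevertheless 1.14 times the Control mean.

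Mstn gave 3, 5 and 0 reads in CM KO, 0, 3 and 0 in EC KO, 1, 6 and 3 in Total KO, and 2 and 13 in Control. Control replicate 2 held the most, and the other Control library lay among the knockout values. Its differences from Control did not pass without the filter (-1.12 in CM KO, -1.78 in EC KO and -0.52 in Total KO on the log2 scale).

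The BMP genes did not pass in any comparison with Control. Bmp6, which in the liver is made by endothelial cells and controls the iron hormone hepcidin, stood at 524, 480.5 and 579.8 normalized counts in CM KO, 393, 657 and 552 in EC KO, 546, 493 and 508 in Total KO, and 479.6 and 519.6 in Control. The EC KO libraries included both the lowest and the highest value of the series. The log2 difference from Control was 0.08 in CM KO (95% interval -0.30 to 0.45) and 0.06 in EC KO (-0.31 to 0.44). In Total KO it was 0.05 (-0.33 to 0.42). Bmp4, a ligand of early heart formation, stood at 116, 95.2 and 95.7 normalized counts in CM KO, 84.6, 100.3 and 104 in EC KO, 80.2, 86.1 and 90.1 in Total KO, and 99.5 and 71.6 in Control. All groups overlapped Control. Its log2 difference from Control was 0.27 in CM KO (-0.13 to 0.67), 0.18 in EC KO (-0.22 to 0.59) and 0.02 in Total KO (-0.39 to 0.42).

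Bmp10, made mainly by atrial muscle in the adult heart, had 2, 1 and 2 reads in CM KO, 0 reads in each EC KO library, 0, 1 and 1 in Total KO, and 1 and 0 in Control. At so few reads no difference from Control was detectable, and none passed without the filter. EC KO minus CM KO passed without the filter (adjusted p = 0.0494 by limma), between groups that both lay at or under the limit of 3 reads in each library, so no fold is given. Of the atrial markers, Sln and Myl7 were at most 12.4 and 31.8 normalized counts in any library, while the list of 7 summed to 106306 to 216641 in CM KO, 5390 to 8275 in EC KO, 6872 to 17413 in Total KO and 6136 to 10306 in Control. That list holds Bmp10 itself, and nearly all of its sum was Nppa (105984 to 215750 in CM KO and 6038 to 10192 in Control), the natriuretic peptide gene that ventricular muscle also switches on under load.

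**Figure D3:**
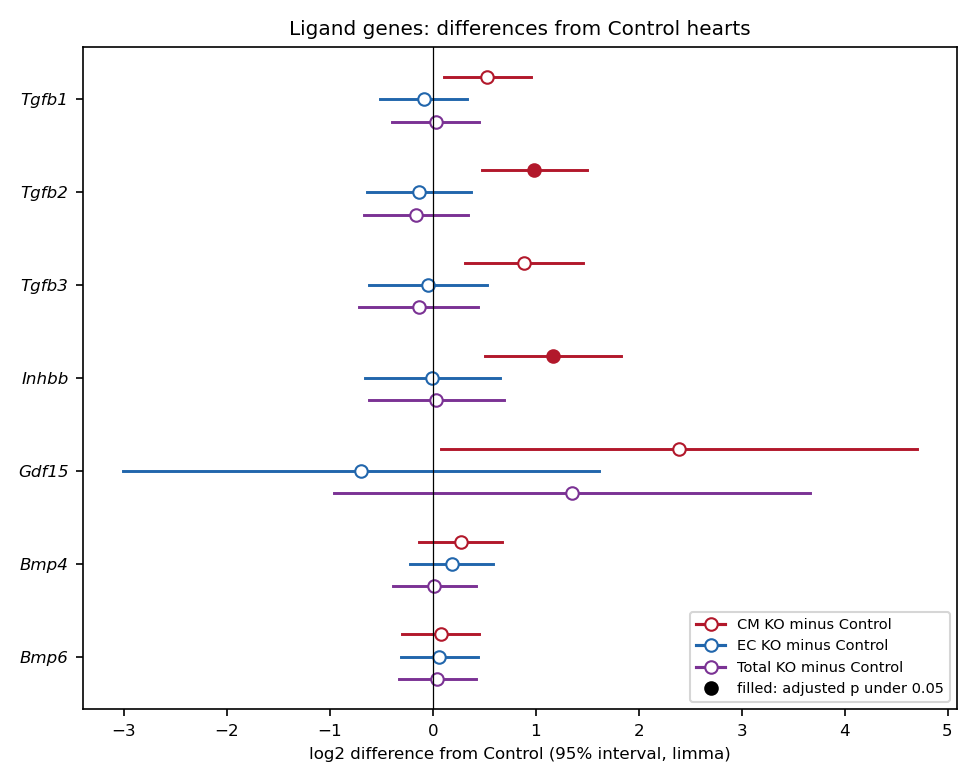
Log2 differences from Control (x axis) of the 7 tested ligand genes (y axis) in CM KO, EC KO and Total KO, with 95% intervals from limma; filled points passed at an adjusted p under 0.05. The filled points are Tgfb2 (0.99) and Inhbb (1.17) in CM KO, and the EC KO and Total KO intervals all include 0.

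In all, 2 of the 7 tested members passed as higher in CM KO than in Control and 0 as lower, against a background of 5.70% of all genes called in either direction and 3.29% called as higher. The median log2 difference of the 7 was 0.89, against 0.00 over all genes tested. In EC KO (background 0.316%) and Total KO (background 0.0848%) against Control, 0 of the 7 tested members passed by limma. Of these 7, 0 were under an unadjusted p of 0.05, and edgeR and DESeq2 on the recovered reads also called 0 in each. Over the 4 groups together, limma's F test called Tgfb2 (adjusted p = 0.00950), Tgfb3 (0.0313 as adjusted p) and Inhbb (0.0249 as adjusted p), against 14.3% of all genes.

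The difference between the knockouts was tested directly. Between EC KO and CM KO hearts, 5 of 7 members were lower in EC KO, against 19.1% of all genes called and 10.4% called as lower. Tgfb2 averaged 242 in EC KO and 528 in CM KO (log2 difference -1.12 ± 0.21, SE; adjusted p = 0.00413 by limma). Inhbb averaged 64.1 in EC KO and 145 in CM KO (-1.17 ± 0.27, adjusted p = 0.0113), and Tgfb3 279 in EC KO and 575 in CM KO (-0.93 ± 0.24, adjusted p = 0.0176). Tgfb1 averaged 277 in EC KO and 425 in CM KO (-0.62 ± 0.17, adjusted p = 0.0281). Gdf15 averaged 13.4 in EC KO and 76.6 in CM KO (-3.09 ± 0.95, adjusted p = 0.0400), and without the shallow EC KO replicate 1 the difference was -1.63 and did not pass (adjusted p = 0.0640). The Gdf15 call was also lost without CM KO replicate 1 (-2.57, adjusted p = 0.146), CM KO replicate 2 (-3.02, adjusted p = 0.0755) or any single Total KO or Control library (adjusted p = 0.0501 to 0.0553). In all 5 genes every EC KO library was below every CM KO library, as in 19.7% of all genes tested. Without the 3 libraries in doubt, Tgfb2 and Tgfb3 remained called, and Inhbb (-0.66, adjusted p = 0.0922), Tgfb1 (-0.43, adjusted p = 0.174) and Gdf15 (-1.11, adjusted p = 0.172) did not. Tgfb1 was also lost without EC KO replicate 1 (-0.52, adjusted p = 0.0959), EC KO replicate 2 (-0.63, adjusted p = 0.0662), CM KO replicate 1 (-0.52, adjusted p = 0.105) or CM KO replicate 3 (-0.66, adjusted p = 0.0520), and Tgfb3 without EC KO replicate 2 (-0.91, adjusted p = 0.0538) or in a fit to EC KO and CM KO alone (adjusted p = 0.0527).

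Between Total KO and CM KO hearts, 3 of 7 members were lower in Total KO, against 16.4% of all genes called and 8.20% called as lower. Tgfb2 averaged 245 in Total KO and 528 in CM KO (-1.15 ± 0.21, SE; adjusted p = 0.00539 by limma). Tgfb3 averaged 262 in Total KO and 575 in CM KO (-1.02 ± 0.24, adjusted p = 0.0143), and -0.65 without CM KO replicate 1, where it still passed (adjusted p = 0.0107). Inhbb averaged 64.3 in Total KO and 145 in CM KO (-1.13 ± 0.27, adjusted p = 0.0157), and it was lost without CM KO replicate 1 (-0.89, adjusted p = 0.0670), Total KO replicate 1 (-1.08, adjusted p = 0.0515), Total KO replicate 3 (-1.04, adjusted p = 0.0625) or the 3 libraries in doubt (-0.83, adjusted p = 0.0502). Tgfb1 (-0.50, adjusted p = 0.0692) and Gdf15 (-1.04, adjusted p = 0.506) did not pass. Tgfb1 passed in 6 of 24 alternatives: by library totals (-0.64, adjusted p = 0.0302), in a fit to Total KO and CM KO alone (adjusted p = 0.0488), with library weights (-0.37, adjusted p = 0.0459), in DESeq2 (-0.49, adjusted p = 0.0420), and without Control replicate 1 (adjusted p = 0.0363) or 2 (adjusted p = 0.0367). These comparisons share the CM KO libraries with those of EC KO, as the comparisons with Control share the 2 Control libraries. Between Total KO and EC KO hearts 0 members passed by limma, and 0 were under an unadjusted p of 0.05, against 0.0385% of all genes called.

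Per kb of exon, Bmp6 was the most abundant of the 10 ligand genes in Control (128 normalized counts per kb), followed by Tgfb3 (85.2), Tgfb1 (59.4), Tgfb2 (46.2), Bmp4 (38.0), Inhbb (14.7), Gdf15 (6.33), Mstn (2.08), Inhba (0.423) and Bmp10 (0.0866). The ranges of Tgfb1 and Tgfb2, of Tgfb2 and Bmp4, of Mstn and Inhba, and of Inhba and Bmp10 overlapped in Control. In CM KO the order was Tgfb3 (169.9 normalized counts per kb), Bmp6 (135), Tgfb2 (91.2), Tgfb1 (84.3), Bmp4 (45.6), Gdf15 (41.3), Inhbb (34.2), Inhba (0.759), Mstn (0.684) and Bmp10 (0.284). The ranges of Tgfb3 and Bmp6, of Tgfb2 and Tgfb1, of Bmp4, Gdf15 and Inhbb, and of Mstn with Inhba and with Bmp10 overlapped in CM KO. Bmp6 also came first in EC KO (136.9 normalized counts per kb) and Total KO (132), and Tgfb3 next in EC KO (82.6) and Total KO (77.5).

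The rest of the pathway was read from lists of genes by role. None of the 6 tested TGF-beta and activin receptor genes (of 7) and none of the 8 tested BMP receptor and coreceptor genes (of 9) passed between CM KO and Control hearts by limma, with list medians of -0.05 and -0.01 on the log2 scale; in each list 1 gene was under an unadjusted p of 0.05, edgeR called 0, and DESeq2 called 1 TGF-beta or activin receptor gene and 0 BMP receptor genes. Tgfbr2, the type II TGF-beta receptor gene, averaged 1551 in CM KO and 1135 in Control (0.43, adjusted p = 0.0968). The 14 Smads and Smad regulators gave 0 calls as well (3 under an unadjusted p of 0.05, and 0 calls in edgeR and DESeq2), with a median of 0.05. Of all 12976 genes tested, 2729 were under an unadjusted p of 0.05 between CM KO and Control by limma. After adjustment 5.70% of them were called, and 3.29% were called as higher in CM KO. Of the 18 tested genes for latency and activation (of 20), 2 were higher in CM KO and 0 lower, with a median of 0.43: Ltbp2, a matrix protein of the latent TGF-beta binding family (4.07 ± 0.67, SE; adjusted p = 0.00882), and Fbn1, the microfibril protein fibrillin that anchors such complexes (1.39 ± 0.24, adjusted p = 0.0118). Ltbp2 differs from its relatives in that it does not bind latent TGF-beta. Of the 13 tested antagonist genes (of 21), 3 were higher and 0 lower, with a median of 0.48. These were Nbl1, a BMP antagonist (1.63, adjusted p = 0.0130), Fstl1, a follistatin-like glycoprotein (1.59, adjusted p = 0.0167), and Bgn, the matrix proteoglycan biglycan, which binds TGF-beta (1.78, adjusted p = 0.0219). Without Control replicate 1, and in a fit to CM KO and Control alone, both counts were 0. The counts of latency and antagonist genes were 7 and 5 without CM KO replicate 2, 3 and 5 without EC KO replicate 1, and 7 and 6 in DESeq2.

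Among 21 genes known to respond to TGF-beta, 14 were higher in CM KO than in Control and 0 lower by limma, with a median log2 difference of 1.49. Of all genes tested, 3.29% were called as higher in CM KO. The list was drawn up with earlier results of these data known, so its count is a description. Timp1, an inhibitor of matrix proteases, averaged 361 in CM KO and 24.9 in Control (3.79 ± 0.43, SE; adjusted p = 0.00140). Cilp, a matrix protein of cartilage and heart, averaged 5032 in CM KO and 200.4 in Control (4.44 ± 0.70, adjusted p = 0.00776), and Acta2, smooth muscle actin, 2734 in CM KO and 1030.3 in Control (1.49 ± 0.24, adjusted p = 0.00788). Ltbp2 belongs to this list too. Of the genes in this list that did not pass, Smad7, the inhibitory Smad, averaged 243 in CM KO and 257 in Control (-0.09, adjusted p = 0.840), and Skil 288 in CM KO and 289 in Control (-0.01, adjusted p = 0.985). Those named last were chosen after their values were seen. The count was 2 without Control replicate 1 and 2 in a fit to CM KO and Control alone, 12 without the 3 libraries in doubt, and 10 to 15 in the other alternatives. In EC KO and Total KO against Control, 0 of the 21 passed by limma, edgeR or DESeq2, and 1 and 0 were under an unadjusted p of 0.05.

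Of 12 genes known to respond to BMPs, 9 were tested and 0 passed between CM KO and Control, with a median of 0.03 (2 under an unadjusted p of 0.05, 0 calls in edgeR and 1 in DESeq2). Id1 averaged 482 in CM KO and 696 in Control (-0.54, adjusted p = 0.0799). Among 22 other ligand genes of the family, 5 were tested and 1 passed, where 5.70% of all genes were called. This was Gdf6, which encodes a BMP-type ligand of joint formation, at 66.3 in CM KO and 14.7 in Control (2.07 ± 0.52, SE; adjusted p = 0.0365 by limma). It did not pass without CM KO replicate 1 or 3, Control replicate 1, EC KO replicate 2, Total KO replicate 2 or 3, or the 3 libraries in doubt. The list also gave 0 calls in a fit to CM KO and Control alone and with a filter at a mean of 50. The next list held 13 genes of the integrated stress response, the pathway through which ATF4 and CHOP raise Gdf15. Of these, 10 were tested and 2 were higher in CM KO, against 3.29% of all genes called as higher. Ddit3, which encodes CHOP, averaged 240 in CM KO and 148 in Control (0.69 ± 0.13, adjusted p = 0.0156), and Mthfd2, a mitochondrial folate enzyme gene, 102 in CM KO and 29.1 in Control (1.73 ± 0.46, adjusted p = 0.0473). The count was 0 without Control replicate 1 and in a fit to CM KO and Control alone. It was 1 without CM KO replicate 1 or 3, Control replicate 2, EC KO replicate 2 or any Total KO library, and 2 without the 3 libraries in doubt. Ddit3 also stood higher in the other knockouts, at 193 to 213 in EC KO and 207 to 241 in Total KO, against 143 to 152 in Control. It passed in neither of them against Control by limma. Atf3 averaged 134 in CM KO and 248 in Control (-1.12, adjusted p = 0.232). Gfral, the receptor gene of GDF15 that is expressed in the hindbrain, had 0 reads in every library.

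**Figure D4:**
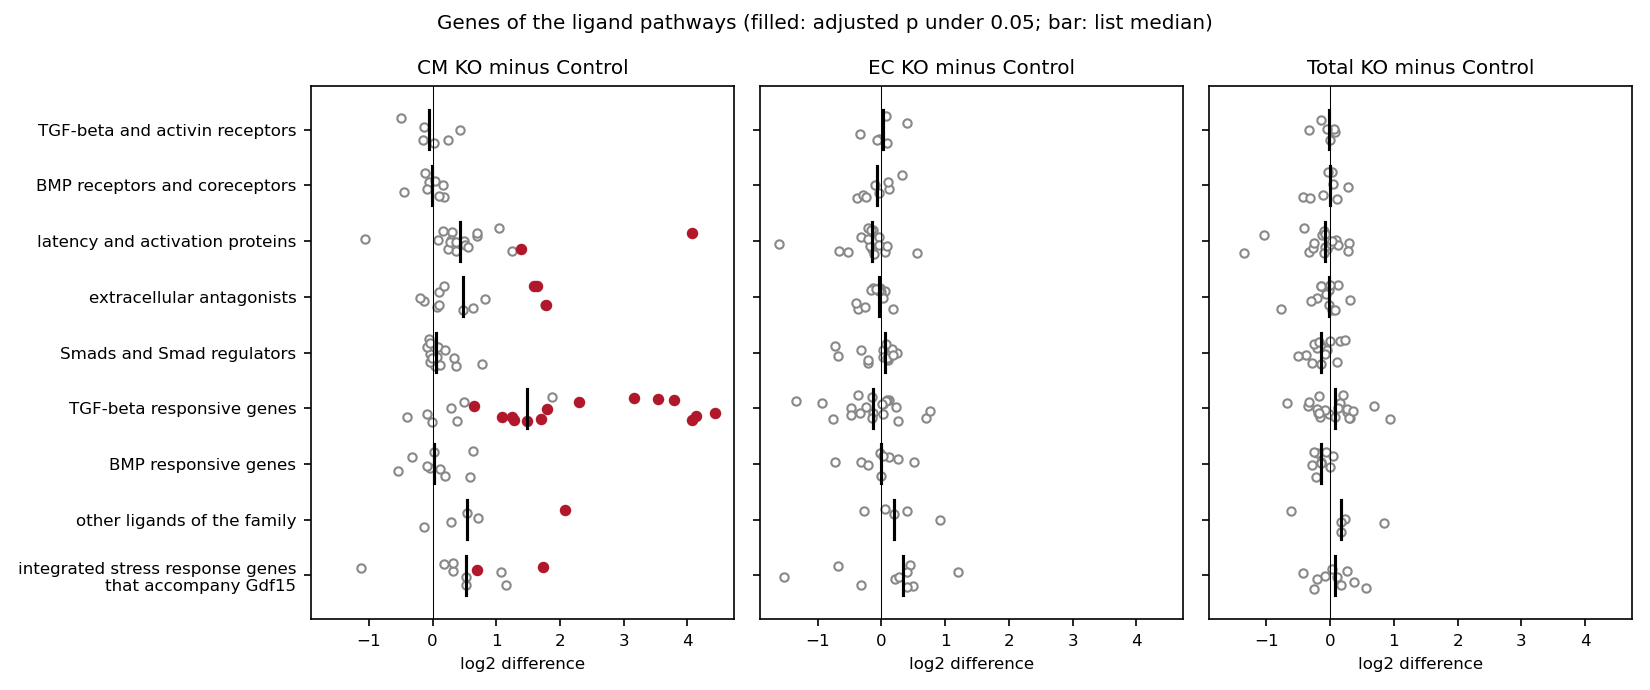
Log2 differences from Control (x axis) of the tested genes of 9 pathway lists (y axis) in CM KO, EC KO and Total KO; each point is a gene, filled where its adjusted p by limma was under 0.05, and the bar is the list median. Filled points appear only in the CM KO panel, with 14 of 21 among TGF-beta responsive genes and 0 among receptors, Smads and BMP responsive genes. Of all genes, 3.29% were called as higher in CM KO.

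Between the knockouts, 14 of the 21 TGF-beta responsive genes were lower in EC KO than in CM KO (median -1.37) and 16 were lower in Total KO than in CM KO (median -1.45), where 10.4% of all genes were called as lower in EC KO and 8.20% in Total KO. Of the 18 tested genes for latency and activation, 9 were lower in EC KO and 12 in Total KO, each against CM KO. Of the 13 tested antagonist genes, 6 were lower in EC KO and 6 in Total KO, each against CM KO. Of the 14 Smads and Smad regulators, 1 was higher and 2 were lower in EC KO than in CM KO, and 0 were higher and 2 lower in Total KO than in CM KO. These counts were near the shares of all genes called in either direction, 19.1% in EC KO minus CM KO and 16.4% in Total KO minus CM KO. Smad3, a carrier of the TGF-beta signal, averaged 257 in EC KO, 288 in Total KO and 423 in CM KO, and both differences from CM KO passed, that of EC KO at -0.72 (adjusted p = 0.00789) and that of Total KO at -0.54 (adjusted p = 0.0315). Smad4, the Smad shared by both branches, was higher in EC KO (0.29, adjusted p = 0.0417), and Ski, a Smad corepressor, was lower in Total KO (-0.35, adjusted p = 0.0413). Among the 9 tested BMP responsive genes, Id1 (0.52, adjusted p = 0.0294) and Hey1 (0.84, adjusted p = 0.0117), both transcriptional repressors, were higher in EC KO than in CM KO, and Bambi, a decoy receptor that is also in the Smad list, was lower (-0.92, adjusted p = 0.00837). The iron regulator Hfe2, a BMP coreceptor gene, was higher in Total KO than in CM KO (0.48, adjusted p = 0.0315). It was the only gene called of the 8 tested BMP receptor and coreceptor genes, where 16.4% of all genes were called. In EC KO and Total KO against Control, and in Total KO against EC KO, 0 of the 97 tested genes of the pathway lists passed by limma, with 15, 8 and 8 under an unadjusted p of 0.05. Of all 12976 genes tested, 1356, 1052 and 1355 were under that p in the same comparisons, so the pathway counts are not read as a shift. By edgeR 0 of the 97 passed in these comparisons. By DESeq2 2 genes of the stress response list passed in EC KO against Control and 1 in Total KO against EC KO, and their names are not given here. Cdkn1a, a p53 target gene that is also in the pathway lists, averaged 3125 in EC KO, 1355 in Control, 1058 in Total KO and 1593 in CM KO. Of the 10 tested genes of the stress response list, 4 were under an unadjusted p of 0.05 in EC KO against Control by limma. The median log2 difference of that list was 0.34. Whether these calls mark a change of ATF4 and CHOP targets was not tested.

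Markers of other cell types moved with the CM KO group. Between CM KO and Control, 3.29% of all genes tested were called as higher in CM KO, and 312 of 12976 as lower. Of 10 fibroblast markers, 5 were higher in CM KO than in Control, and the list summed to 57605 to 99767 normalized counts in CM KO, 40387 to 42338 in EC KO, 39459 to 46795 in Total KO and 43361 to 47361 in Control. Col1a1, Col1a2 and Col3a1 belong both to this list and to the TGF-beta responsive list, and the fibroblast transcription factor gene Tcf21 stood at 150.5 to 154 in CM KO and 130.5 to 134 in Control. Of 9 macrophage and monocyte markers, 9 were higher in CM KO than in Control, with sums of 6282 to 11225 in CM KO, 3075 to 3454 in EC KO, 3312 to 4403 in Total KO and 3381 to 3617 in Control. Csf1r, a defining macrophage receptor gene, averaged 2236 in CM KO and 1035 in Control (1.09 ± 0.18, SE; adjusted p = 0.00863 by limma). Without Control replicate 1, and in a fit to CM KO and Control alone, both counts were 0. Of the platelet markers, 1 of 3 tested (of 5) was higher: Pf4 averaged 187 in CM KO and 90.5 in Control (1.04, adjusted p = 0.0123), and the list summed to 241 to 278 in CM KO and 149.9 to 152 in Control. Of the 4 tested atrial markers (of 7), Nppa (4.14), Mybphl (4.57) and Dkk3 (2.24) were higher in CM KO, while Sln and Myl7 were at 0 to 0.648 and 3.24 to 7.71 normalized counts in CM KO. Of 8 smooth muscle and pericyte markers, Acta2 was higher and Rgs5 (-0.42) and Kcnj8 (-0.44) lower in CM KO than in Control. Without Control replicate 1 the smooth muscle and platelet counts were 0 and the atrial count was 1. In the cardiomyocyte, endothelial, mesothelial and red blood cell lists and for 1 skeletal muscle gene, 0 passed between CM KO and Control (4 genes were under an unadjusted p of 0.05, edgeR called 0 and DESeq2 1), and no adipocyte marker was tested. The 9 cardiomyocyte markers summed to 742812 to 1079000 normalized counts in CM KO and 1191940 to 1206340 in Control. Between EC KO and CM KO hearts, 8 of 10 fibroblast, 9 of 9 macrophage and 3 of 4 tested atrial markers were lower in EC KO, and 5 of 9 endothelial and 3 of 9 cardiomyocyte markers were higher. Of the 8 smooth muscle and pericyte markers, 3 were higher and 1 lower in EC KO, and 1 of 3 platelet markers was lower. In EC KO minus CM KO, 10.4% of all genes were called as lower and 1131 of 12976 as higher. Between Total KO and CM KO hearts, 8 of 10 fibroblast, 9 of 9 macrophage, 3 of 4 atrial, 1 of 9 endothelial, 1 of 8 smooth muscle and 1 of 3 platelet markers were lower in Total KO, and 1 of 9 cardiomyocyte markers was higher. In Total KO minus CM KO, 8.20% of all genes were called as lower and 1064 of 12976 as higher. The counts of 1 of 9 and 1 of 8 lie near these shares. The other marker lists gave 0 calls in these comparisons by limma, edgeR or DESeq2, and 1 mesothelial marker was under an unadjusted p of 0.05 between EC KO and CM KO. The endothelial markers summed to 18386 to 18832 normalized counts in CM KO, 22701 to 25171 in EC KO, 19304 to 20759 in Total KO and 19440 to 21724 in Control. The part of these cell types in the ligand differences was not tested.

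Across the 11 libraries, Tgfb1, Tgfb2, Tgfb3 and Inhbb were highest in the CM KO libraries, which also had the highest fibroblast and macrophage sums. Of all genes tested, 18.3% had every CM KO library above every Control library, and 19.7% had every CM KO library above every EC KO library. The share with CM KO above all other libraries together was not computed. Within CM KO, replicate 1 had the highest values of Tgfb1, Tgfb2, Tgfb3, Inhbb and Gdf15 and the highest fibroblast and macrophage sums.

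**Figure D5:**
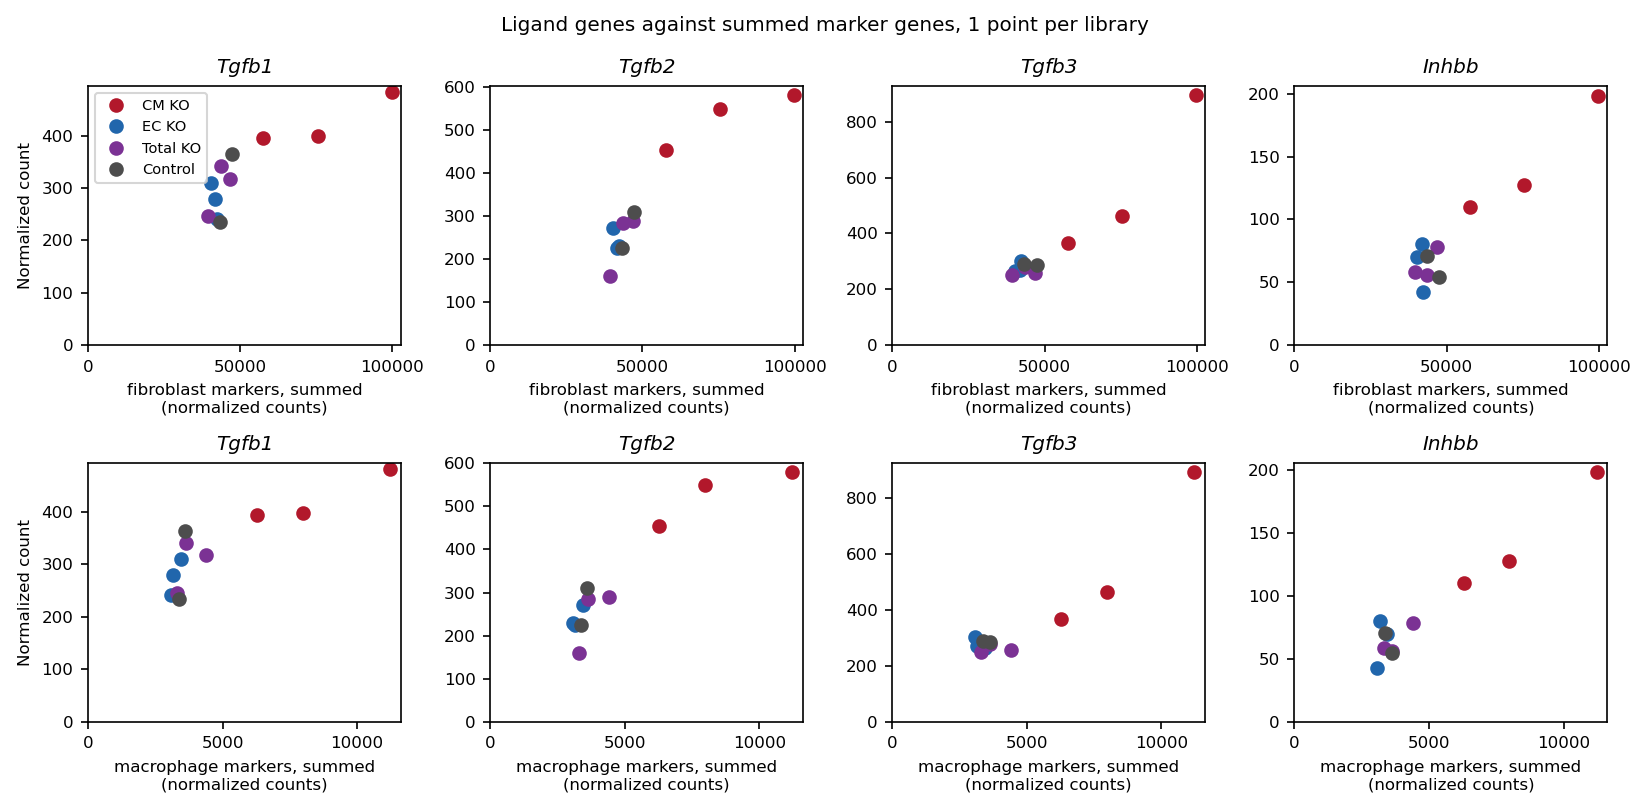
Normalized counts of Tgfb1, Tgfb2, Tgfb3 and Inhbb (y axes, from 0) against the summed normalized counts of fibroblast markers (top row) and macrophage markers (bottom row) in each library (points, by group). The 3 CM KO points lie at the upper right of each panel, and the other 8 libraries lie together at fibroblast sums of 39459 to 47361 and macrophage sums of 3075 to 4403.

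The genes most like each member were those with the highest Pearson's r over the 11 libraries on the log2 scale, given as a description: all share the same libraries, and the CM KO group lies apart in most of them. For Tgfb2 they were Scara3 (0.970), Tmem43 (0.964) and Atp6v0e2 (0.961). For Tgfb3 they were Loxl3 (0.985), Eef1a1 (0.983) and Vim (0.983), and for Tgfb1 Coro1b (0.962), Siglec1 (0.960) and Dnajc18 (0.957). For Inhbb they were Tspo (0.971), Cd86 (0.968) and Poldip3 (0.966). Of these, Scara3, Tmem43, Atp6v0e2, Tspo and Cd86 passed as higher in CM KO than in Control by limma, with log2 differences of 0.55 to 1.25. For Gdf15 they were Nrip3 (0.976), Ap1g2 (0.966) and Ap2b1 (0.946), for Bmp4 Gdi2 (0.927), Apod (0.913) and Mapk8ip1 (0.910), and for Bmp6 Rbm15b (0.895), Mesdc1 (0.891) and Adprhl2 (0.886), none of which passed. Among the members, r was highest for Tgfb1 with Tgfb2 (0.919) and for Tgfb3 with Inhbb (0.845), and lowest for Tgfb3 with Bmp6 (0.0327).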

How the data were processed

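Heart RNA of 11 mouse libraries (CM KO 3, EC KO 3, Total KO 3, Control 2) was sequenced, per the labels' protocols, after ribosomal RNA removal, in a strand-specific way, from 400 ng of RNA each. Per the submitters' processing notes, the tools were HTSeq 0.8.0, DESeq2 (version written as 3.5) and TopHat2, on the mm10 build; counting mode, strand setting and annotation are not given in the sources used here. The deposited signal values are gene counts that the authors divided by 1 factor per library, called normalized counts here. Divided by the smallest step of their library, 257620 of 257620 values were whole to within 0.05 reads, which gave back the read counts. The table has 23420 genes, 27 of which carry a date in place of a symbol.

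The main test was limma 3.58.1 (R 4.3.3) on log2(value + 1) with a trended prior variance over all 11 libraries, for 12976 genes with a mean of at least 10, with 6 contrasts and an F test, two-sided, adjusted by Benjamini-Hochberg over all genes tested and called under 0.05. Differences are on the log2(value + 1) scale, and intervals cover 95%. The added 1 shrinks changes of low genes, but a 0 in a shallow library can enlarge them. For Gdf15 in EC KO minus CM KO the difference was -3.09, against -2.08 in edgeR and -2.20 in DESeq2. The steps were tested on simulated data. Replicate numbers follow the order of deposit. Results were recomputed with other pseudocounts (0.5, 5) and filters (none, 50), with values rescaled by upper quartiles, totals or quantiles, in a fit to the groups compared, with library weights (arrayWeights) or a robust prior, in DESeq2 1.42.0 and edgeR 4.0.16 (quasi-likelihood, TMM) from recovered reads, with each library left out in turn, and with the 3 libraries in doubt (replicates 1 of CM KO, EC KO and Total KO) left out together.

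The members and gene lists were chosen with earlier results of these data known. Named genes are the 10 members, up to 4 called genes of lowest p per list and comparison, defining markers, and the 3 genes of highest r for each tested member, predicted genes left out; genes named outside this rule, such as Tgfbr2, Id1, Atf3, Smad7 and Skil, were picked with their values known. List symbols were matched through older names where needed (Adgre1 as Emr1, Ccn2 as Ctgf, Hjv as Hfe2, Nrros as Lrrc33, Hbb-bs as Beta-s). Gene positions came from GENCODE and promoter sequences from RefSeq, both of GRCm38, and motifs were searched with Python 3.11.15.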

Additional observations from a re-analysis of the deposited data

Results flagged for a closer look

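A difference between CM KO hearts and another knockout passed limma's test of that difference for 5 members, where 19.1% of all genes were called in EC KO minus CM KO and 16.4% in Total KO minus CM KO. In EC KO minus CM KO, the log2 differences were -1.12 for Tgfb2, -1.17 for Inhbb, -0.93 for Tgfb3, -0.62 for Tgfb1 and -3.09 for Gdf15. In Total KO minus CM KO, they were -1.15 for Tgfb2, -1.13 for Inhbb and -1.02 for Tgfb3. The comparisons share the 3 CM KO libraries, whose label numbers form a run of their own, so that group and run cannot be told apart. Tgfb2 passed in both comparisons, and Tgfb3 in Total KO minus CM KO, in each of the 24 alternatives. Gdf15 passed in 9 of the 23 that gave it a value; its EC KO mean includes the 0 of the library with 2268403 reads.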

How the results depend on the processing

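No paired analysis was possible because the labels tie libraries across groups by neither animal nor litter nor day. The 2 Control libraries limit every comparison with Control, and EC KO replicate 1, with 2268403 reads, limits low genes: Gdf15 has 0 reads there. Of the member values under the alternatives, 883 kept direction and side of the threshold, 41 lost the call, 13 gained it and 64 changed direction, none of these called in either fit. The cause of each change was not tested.

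Members called in CM KO against Control numbered 1 with no filter, 0 in the fit to 2 groups, 1 with arrayWeights, and 4 in edgeR and 4 in DESeq2; in EC KO against CM KO 3 in the fit to 2 groups and 2 without the 3 libraries in doubt; in the F test 5 in DESeq2. Leaving out 1 library gave 0 to 3 (CM KO against Control), 3 to 5 (EC KO against CM KO), 2 to 4 (Total KO against CM KO) and 1 to 4 (F test). All genes called in EC KO against Control numbered 22 with no filter, 27 with arrayWeights, 162 in DESeq2 and 64 without the 3 libraries; in Total KO against Control 7 with no filter, 26 by library totals, 93 in DESeq2 and 72 without the 3; in Total KO against EC KO 0 with no filter, 3 with a filter at 50, 14 in the fit to 2 groups, 116 with arrayWeights, 70 in DESeq2 and 17 without the 3. CM KO against Control gave 61 in the fit to 2 groups and 1276 in DESeq2; Total KO against CM KO 3553 with arrayWeights and 917 without the 3; EC KO against CM KO 1288 without the 3. With 1 library left out these ranged over 26 to 999 (CM KO against Control), 5 to 84 (EC KO against Control), 1 to 33 (Total KO against Control), 1455 to 2582 (EC KO against CM KO), 1036 to 2272 (Total KO against CM KO) and 0 to 28 (Total KO against EC KO).

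Differences that changed direction, on the log2 scale, were as follows. EC KO minus Control: Inhbb 0.0027 (upper quartile), 0.066 (quantile), 0.19 (arrayWeights), 0.17 (edgeR), 0.15 (DESeq2) and 0.27 (without the 3); Gdf15 0.26 (quantile), 0.25 (arrayWeights), 0.61 (edgeR), 0.51 (DESeq2) and 0.77 (without the 3); Tgfb1 0.0070 (without the 3). Total KO minus Control: by library totals Tgfb1 -0.023, Inhbb -0.017, Bmp4 -0.035 and Bmp6 -0.0069; Bmp4 -0.0028 (edgeR); Tgfb2 0.12 (without the 3). EC KO minus CM KO: Bmp4 0.057 (quantile), 0.034 (arrayWeights) and 0.10 (without the 3); Bmp6 0.082 (arrayWeights), 0.072 (edgeR), 0.069 (DESeq2) and 0.19 (without the 3). Total KO minus EC KO: Tgfb2 0.085 (arrayWeights), 0.0096 (edgeR), 0.010 (DESeq2) and 0.21 (without the 3); Inhbb -0.17 (arrayWeights), -0.13 (edgeR), -0.11 (DESeq2) and -0.17 (without the 3). With 1 library left out, EC KO minus Control ranged over -0.40 to 0.23 (Tgfb1), -0.36 to 0.10 (Tgfb2), -0.19 to 0.27 (Inhbb), -1.51 to 0.77 (Gdf15), -0.050 to 0.42 (Bmp4) and -0.10 to 0.27 (Bmp6). Total KO minus Control ranged over -0.29 to 0.35 (Tgfb1), -0.39 to 0.12 (Tgfb2), -0.15 to 0.22 (Inhbb), -0.22 to 0.25 (Bmp4) and -0.012 to 0.10 (Bmp6). EC KO minus CM KO ranged over -0.15 to 0.0089 (Bmp4) and -0.18 to 0.19 (Bmp6), and Total KO minus CM KO over -0.10 to 0.038 (Bmp6). Total KO minus EC KO ranged over -0.17 to 0.25 (Tgfb2), -0.23 to 0.22 (Inhbb) and -0.22 to 0.15 (Bmp6). Rescaling by library totals moved the median of all genes to -0.12 in EC KO minus CM KO and -0.14 in Total KO minus CM KO.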
